A study of Mus musculus with 6 samples.

Results

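The genes described here encode the SR proteins and the heterogeneous nuclear ribonucleoproteins (hnRNPs), the 2 large families of RNA-binding proteins that steer pre-mRNA splicing. They were chosen by symbol: Srsf with a number, symbols that begin with Hnrnp or with Srrm and a digit, and Tra2a and Tra2b. This gave 39 of the 32531 gene symbols in the files, of which 38 had enough reads to be tested and 38 could be matched to the GENCODE M21 annotation (GRCm38). One match, Srrm4os, is an antisense noncoding RNA at the Srrm4 locus, so 37 of the tested members encode proteins. The remaining symbol, Hnrnpa1l2, had 0 reads in each input library and 2, 1 and 1 reads in the IP libraries, and was not tested.

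The libraries come from cerebral cortex of untreated adult mice that carry Htr4-EGFP/Rpl10a (line ES1299), a ribosomal protein tagged with EGFP and made in cells where Htr4 regulatory sequences are active. One group of 3 libraries (IP) holds RNA on tagged ribosomes, captured with anti-EGFP antibodies (translating ribosome affinity purification, TRAP); the series title names pyramidal neurons as the cells of interest. The tag marks the cells in which the transgene is active, not a cell type as such. The other 3 libraries (input) are the unpurified reference from the same line, which still contains the tagged cells. The labels do not state the exact age, the sex or how many animals went into a library, and nothing says that the libraries of a group are separate animals, so p-values measure only the spread between these libraries, which may be technical. Gene reads per library ran from 37696125 to 67559533, and tested protein-coding members had between 165 and 38451 reads in a library.

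SR proteins of the Srsf and Tra2 groups carry RNA recognition motifs and a region rich in arginine and serine. They typically bind exonic enhancers, recruit the spliceosome and favour exon inclusion. The hnRNPs coat nascent transcripts and often act against exon inclusion, and several also move between nucleus and cytoplasm to accompany mRNA. Many genes of both families control their own output: a share of their transcripts includes a poison exon that leads to nonsense-mediated decay, or keeps an intron and stays in the nucleus. Ribosome capture samples cytoplasmic, ribosome-bound RNA, while the input also holds nuclear RNA.

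Members of the family moved in both directions, and their median change lay near that of all tested genes. Of the 38 tested members, 9 were higher in IP (23.7%), 4 were lower (10.5%) and 25 were not called (adjusted p under 0.05 in the quasi-likelihood test of edgeR, with Benjamini-Hochberg adjustment over all tested genes, as for each adjusted p given here). Over all 16506 tested genes, 21.3% were called higher and 23.4% lower, 44.8% in either direction, against 34.2% of the members. The members' median log2 fold change was 0.01, beside -0.02 for all tested genes. Changes of at least 2-fold were limited to Srsf11 and Srrm4os, both lower in IP (over all tested genes, 15.4% were called and at least 2-fold lower, 4.42% at least 2-fold higher). The summed level of the family was 4120 to 4280 CPM in input and 4547 to 4686 CPM in IP, where CPM is counts scaled to library size with TMM factors. The count of lower calls depended on the analysis: DESeq2 called 9 members higher and 8 lower (Hnrnpd, Hnrnpu, Srsf6 and Srsf7 in addition), and RLE size factors gave 8 higher and 6 lower.

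**Figure D1:**
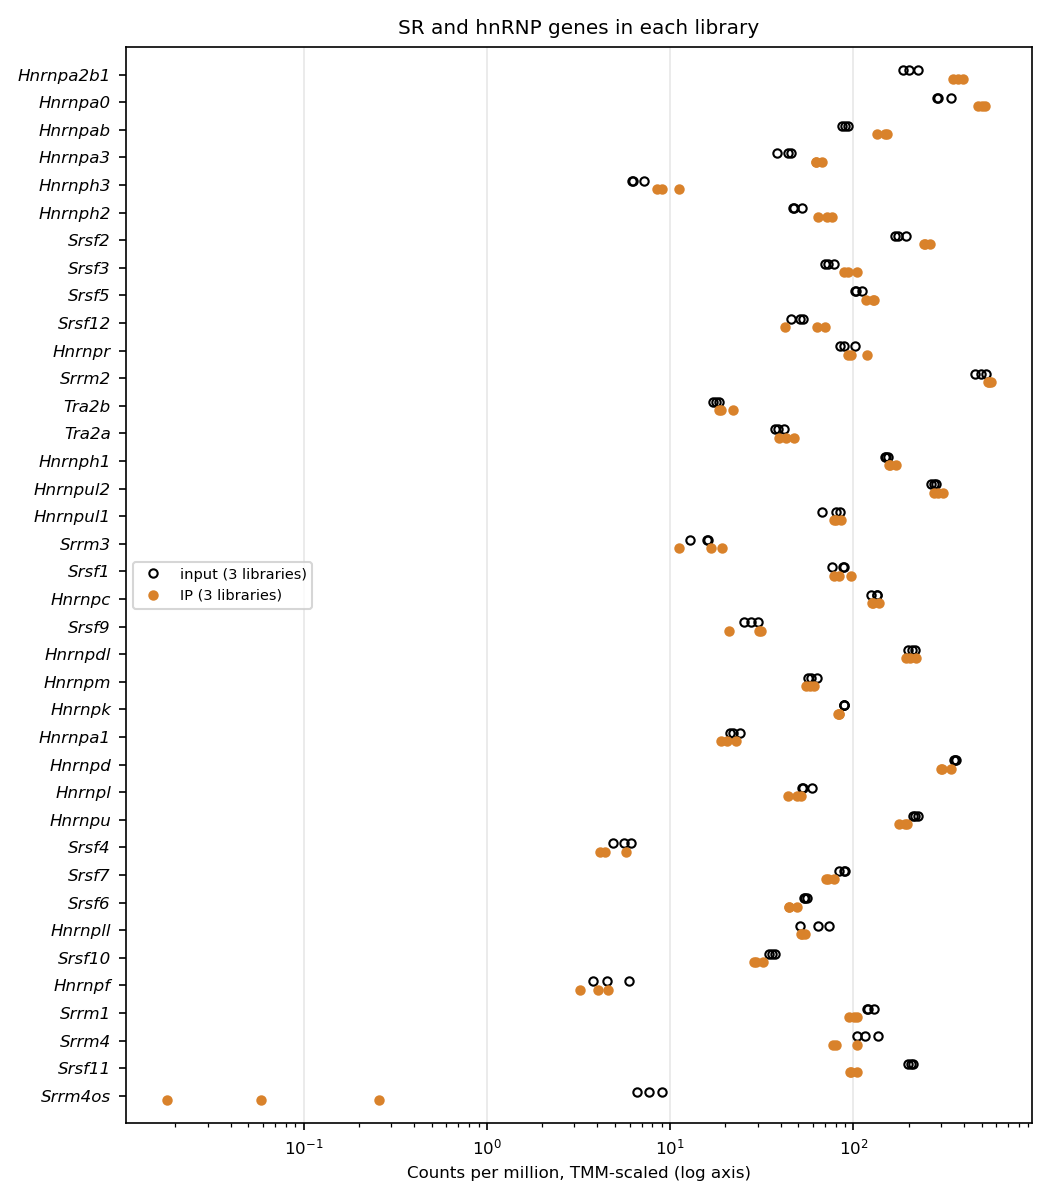
CPM (TMM-scaled, log axis) of the 38 tested members in each of the 3 input libraries (open circles) and the 3 IP libraries (filled circles), ordered by log2 fold change with the highest at the top. Most genes lie close together in both groups; Srrm4os is the exception, with 0.02 to 0.26 CPM in IP against 6.56 to 9.03 in input.

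The hnRNP genes that rose in IP came from the A/B and F/H branches. In the A/B and D branch, 4 of 7 rose, 0 fell and the median was 0.59 on the log2 scale. In the F/H branch, 2 of 4 rose and 0 fell. In the F/H branch the offset for transcript length and GC content left 1 call. None of the 6 genes of the C, K, L, M and R types and none of the 3 U-type genes was called (with the offset, 1 higher and 1 lower, and 1 higher). Over all 20 tested hnRNP genes, 6 were higher (30%) and 0 lower. Among the 17 tested SR genes (Srsf, Tra2 and Srrm), 3 were higher and 3 lower (17.6% each). Over all tested genes, 21.3% were higher and 23.4% lower. Each class holds few genes, and differences from these shares were not tested.

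**Figure D2:**
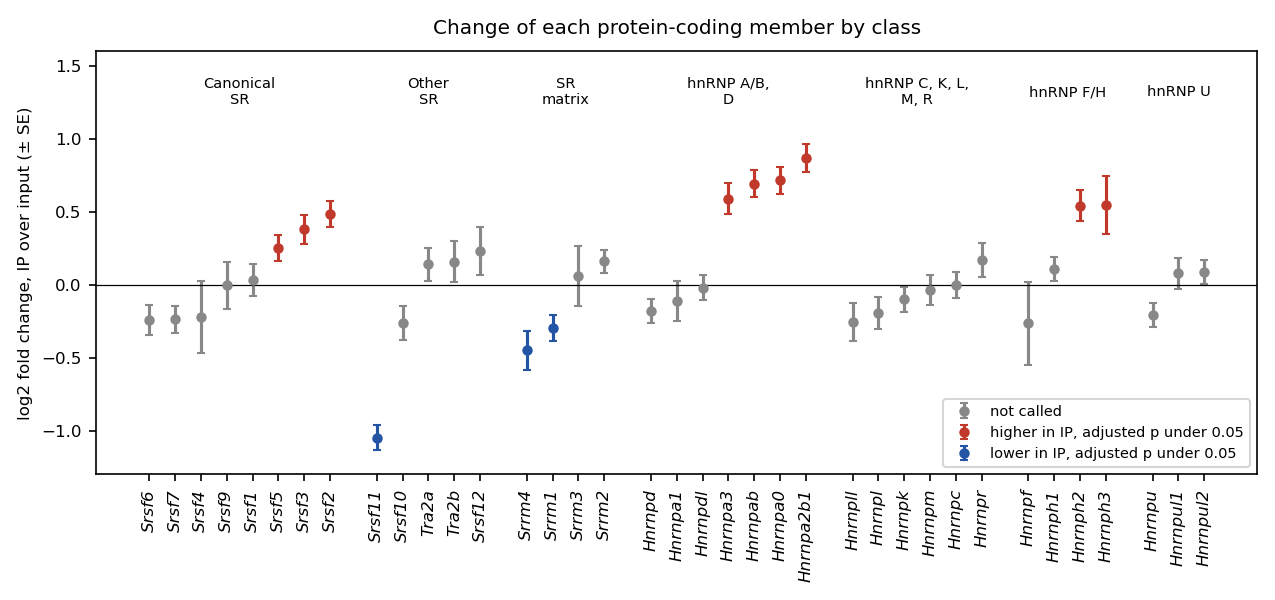
Log2 fold change, IP over input, with its standard error for the 37 tested protein-coding members, grouped by class. Red and blue mark adjusted p under 0.05. The 4 highest points are Hnrnpa2b1, Hnrnpa0, Hnrnpab and Hnrnpa3 (0.59 to 0.87), and the lowest is Srsf11 (-1.05).

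Hnrnpa2b1, whose product binds RNA for splicing and for transport along dendrites, rose the most. It had 226, 200 and 187 CPM in input replicates 1 to 3 and 374, 351 and 396 CPM in IP replicates 1 to 3. The groups were well apart, and the gene was 1.83-fold higher in IP (log2 change 0.87, SE 0.09, adjusted p = 2.6e-05). Hnrnpa0, a single-exon relative that binds AU-rich mRNA, had 342, 289 and 285 CPM in input and 523, 480 and 500 CPM in IP. Every IP library exceeded every input library (1.64-fold, log2 change 0.71, SE 0.09, adjusted p = 9.1e-05). Per kilobase of their longest coding transcript these were the 2 most abundant members in both groups, at 118 and 114 CPM per kb in input and 216 and 187 CPM per kb in IP.

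Hnrnpab, which encodes an RNA- and DNA-binding protein of dendritic and nuclear complexes, had 93.5, 86.6 and 89.9 CPM in input and 149, 152 and 135 CPM in IP (log2 change 0.69, SE 0.09, adjusted p = 9.8e-05). Hnrnpa3, a close relative of Hnrnpa1, had 43.8, 38.3 and 45.7 CPM in input and 67.7, 62.2 and 62.4 CPM in IP (log2 change 0.59, SE 0.11, adjusted p = 0.0010). In both genes the lowest IP library stood above the highest input library. The other 3 genes of the branch were close to level: Hnrnpa1, the founding shuttling hnRNP, had 21.3 to 24.0 CPM in input and 19.0 to 22.9 in the IP libraries (log2 change -0.11, adjusted p = 0.54). Hnrnpdl had 198 to 217 CPM in input and 192 to 219 in the IP libraries (log2 change -0.02). Hnrnpd, the AU-rich element factor AUF1, lay lower in all IP libraries, at 300 to 341 CPM against 352 to 362 CPM in input, but did not pass (log2 change -0.18, adjusted p = 0.10); its sign turned with the offset for transcript length and GC content (log2 change 0.08).

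In the F/H branch, whose proteins bind runs of G, Hnrnph2 had 52.2, 46.7 and 47.1 CPM in input and 64.3, 71.6 and 76.5 CPM in IP (log2 change 0.54, SE 0.11, adjusted p = 0.0016). Hnrnph3, a lowly counted member, had 7.22, 6.20 and 6.24 CPM in input and 8.46, 9.07 and 11.2 CPM in IP (log2 change 0.55, SE 0.20, adjusted p = 0.042). The groups did not overlap for either gene, yet the call of Hnrnph3 ended with the replicate number as a block (adjusted p = 0.056), with the length and GC offset (adjusted p = 0.11), with either other filter (adjusted p = 0.050 and 0.057), and without input replicate 1 (0.052), 2 (0.14) or 3 (0.11) or IP replicate 2 (0.052) or 3 (0.13). Hnrnph1, the most abundant gene of the branch per kilobase, had 148 to 154 CPM in input and 157 to 171 in IP and was not called (log2 change 0.11, adjusted p = 0.32). Hnrnpf had 3.79 to 5.98 and 3.24 to 4.59 CPM, with overlapping groups.

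Several hnRNP genes are hard to count because pseudogenes or relatives carry the same letters. Among the members, 8 had over 10% of their distinct 50-base windows in transcripts of genes at other loci, led by Hnrnpf (43.2%), Hnrnpa1 (28.2%) and Hnrnpa3 (27.0%). A read that lies wholly in such a window matches several genes, and reads aligned to several places are listed apart from the gene counts. The coding window that is shared by the most other genes is shown for each of these 3, as an example of sequence whose reads cannot be assigned. It lies at coding bases 803 to 852 of Hnrnpf (8 other genes), 455 to 504 of Hnrnpa1 (9 other genes) and 46 to 95 of Hnrnpa3 (23 other genes), counted from the A of the start codon of the longest coding transcript in GENCODE M21, on the coding strand. No base is in capitals, because each run is shared over its whole length.
Hnrnpf: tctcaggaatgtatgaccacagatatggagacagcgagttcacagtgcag
Hnrnpa1: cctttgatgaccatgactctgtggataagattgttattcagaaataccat
Hnrnpa3: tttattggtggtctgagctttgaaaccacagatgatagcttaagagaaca

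The values of these genes are therefore uncertain. Overlap with a neighbouring gene limits another set. More than 10% of the exon bases were shared with a gene at the same place for 5 members: Srsf4 (43.0%), Hnrnpab (29.1%), Hnrnpf (26.5%), Srsf2 (25.3%) and Hnrnpm (14.7%). Reads on overlapping genes were 8.99% ± 0.856 of all listed reads for input and 1.82% ± 0.0772 for IP (SD, n = 3). Reads aligned to several places were 22.4% ± 1.21 and 34.4% ± 1.43. Their part in these results was not tested. Without the 12 members over either limit, which were set after seeing the data, 3 of 26 were higher (Hnrnpa2b1, Hnrnpa0 and Hnrnph3) and 4 lower. The other 6 higher genes are all over a limit: Hnrnpa3, Hnrnph2, Srsf3 and Srsf5 for shared windows, Hnrnpab and Srsf2 for overlap.

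The C-, K-, L-, M- and R-type and U-type hnRNPs had small differences in both directions, none of them called. Hnrnpc, a nuclear protein that packages nascent RNA, had 124 to 135 CPM in input and 126 to 138 in the IP libraries (log2 change -0.0033, adjusted p = 0.98). Hnrnpk, a poly(C)-binding protein, was tightly measured, at 88.8 to 89.2 CPM in input and 82.2 to 83.5 in IP, and did not pass (log2 change -0.10, adjusted p = 0.38). Hnrnpu, which binds chromatin-associated RNA, had 216, 211 and 224 CPM in input and 178, 196 and 190 CPM in IP, all IP libraries lower (log2 change -0.21, adjusted p = 0.059). DESeq2 called it lower (adjusted p = 0.021), and its sign turned with the length and GC offset (log2 change 0.09). Hnrnpr, a motor neuron-associated hnRNP, had 84.8 to 102 CPM in input and 93.2 to 119 in the IP libraries (log2 change 0.17, adjusted p = 0.26), but 0.96 with the offset (adjusted p = 0.00014), where its annotated length of 21452 bases, the longest of the members, enters. Hnrnpl (-0.19), Hnrnpll (-0.25), Hnrnpm (-0.04), Hnrnpul1 (0.08) and Hnrnpul2 (0.09) had log2 changes of small size and were not called; Hnrnpl passed with the offset as lower (adjusted p = 0.013) and Hnrnpul2 as higher (adjusted p = 0.029).

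Among the 8 canonical SR genes, 3 rose and 0 fell, with a median of 0.01 (over all tested genes, 21.3% were higher and 23.4% lower). With the offset for transcript length and GC content the tally was 1 higher and 2 lower, with a median of -0.13. Srsf2, also known as SC35 and concentrated in nuclear speckles, had 168, 176 and 194 CPM in input and 245, 244 and 263 CPM in IP, 1.40-fold higher (log2 change 0.48, SE 0.09, adjusted p = 0.00094). Srsf3, the smallest canonical SR protein and an adaptor for mRNA export, had 78.0, 70.0 and 72.3 CPM in input and 105, 93.2 and 88.6 CPM in IP (log2 change 0.38, SE 0.10, adjusted p = 0.0089). Srsf5 had 111, 103 and 102 CPM in input and 128, 117 and 130 CPM in IP (log2 change 0.25, SE 0.09, adjusted p = 0.039). For each of the 3, no input library reached an IP library. These calls were less steady than those of the hnRNP A/B genes: Srsf2 fell just short with the length and GC offset (log2 change 0.24, adjusted p = 0.051), Srsf3 without input replicate 2 (adjusted p = 0.056), and Srsf5 without input replicate 2 (0.14) or 3 (0.089) or IP replicate 1 (0.077) or 3 (0.091). Srsf5 was also not called with RLE size factors (0.058) or a filter of 1 CPM (0.084), and turned sign with the offset (log2 change -0.03, adjusted p = 0.75).

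The other 5 canonical SR genes were not called. Srsf6 and Srsf7 lay lower in each IP library: Srsf6 had 53.7 to 55.4 CPM in input and 44.4 to 49.4 in the IP libraries (log2 change -0.24, adjusted p = 0.074), and Srsf7 had 82.9 to 89.5 CPM in input and 70.8 to 78.4 in the IP libraries (log2 change -0.24, adjusted p = 0.058). Both passed as lower in DESeq2 (adjusted p = 0.041 and 0.026), and Srsf7 also with the offset (adjusted p = 0.0055). Srsf1, the prototype of the family, had 76.1 to 89.0 CPM in input and 77.8 to 97.3 in the IP libraries (log2 change 0.03, adjusted p = 0.84). Srsf9 had a log2 change of -0.01, with log2 ratios of 0.01, 0.30 and -0.38 within lanes 1, 2 and 3. It was called lower with the offset (log2 change -0.51, adjusted p = 0.036) and turned sign without IP replicate 3 (log2 change 0.16). The poorly countable Srsf4 had 4.85 to 6.10 and 4.14 to 5.71 CPM.

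Srsf11, an SR protein that cooperates with Srrm4 on neuronal microexons, was the one protein-coding member to fall at least 2-fold. It had 206, 198 and 211 CPM in input and 96.3, 97.0 and 104 CPM in IP. The 2 groups were tight and far apart: the gene was 2.07-fold lower in IP (log2 change -1.05, SE 0.09, adjusted p = 3.0e-06). The log2 ratio was -1.09, -1.03 and -1.01 within lanes 1, 2 and 3, and the call held in all 15 alternatives run (adjusted p from 5.4e-31 to 7.1e-05). Per kilobase, Srsf11 had 66.0 CPM in input, close to Srsf5 (67.1), and 31.9 CPM in IP, against 79.8 for Srsf5. Its locus is on chromosome 3 at 158010473 to 158036639, minus strand.

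The remaining SR genes outside the canonical set did not pass. Srsf10, a splicing repressor when dephosphorylated, lay lower in each IP library, at 28.5 to 32.2 against 34.8 to 37.5 CPM (log2 change -0.26, adjusted p = 0.087). Tra2a and Tra2b, which bind GAA-rich enhancers, had log2 changes of 0.14 and 0.16 (adjusted p = 0.35 and 0.40). Srsf12 had 53.3, 45.4 and 51.1 CPM in input and 69.7, 63.6 and 42.4 CPM in IP (log2 change 0.23, adjusted p = 0.28). It was above all inputs in 2 IP libraries and below them in the third, and it passed without IP replicate 3 (log2 change 0.42, adjusted p = 0.014).

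Of the 4 Srrm genes that encode proteins, 2 were called lower and 0 higher (over all tested genes, 23.4% and 21.3%). Srrm4, also called nSR100, is a neuron-specific activator of microexons, short exons of neuronal proteins. It had 116, 104 and 136 CPM in input and 77.2, 104 and 80.2 CPM in IP (log2 change -0.45, SE 0.13, adjusted p = 0.017). IP replicate 2 was level with input replicate 2, so that the log2 ratio was -0.59, -0.0036 and -0.76 within the lanes. The call ended without input replicate 1 (adjusted p = 0.057) or 3 (0.11), if IP replicate 1 (0.060) or 3 (0.053) was left out, and with the length and GC offset (0.12). Srrm1, a coactivator that bridges enhancer-bound SR proteins and the snRNPs, had 119, 119 and 130 CPM in input and 105, 100 and 94.3 CPM in IP (log2 change -0.30, SE 0.09, adjusted p = 0.018). Its groups did not overlap, but the call ended when input replicate 3 (adjusted p = 0.088) or IP replicate 3 (0.065) was left out and with total counts in place of TMM (0.085).

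Srrm2, a large scaffold of nuclear speckles, had 459, 494 and 527 CPM in input and 561, 551 and 541 CPM in IP. Each IP library exceeded each input library, but the gene did not pass (log2 change 0.16, adjusted p = 0.13); it passed with total counts (0.016) and with the length and GC offset (0.00068). Srrm3, a neural relative of Srrm4, had 12.9 to 16.2 CPM in input and 11.1 to 19.2 in the IP libraries (log2 change 0.06, adjusted p = 0.83).

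The antisense RNA Srrm4os had the widest separation of any member. It was counted with 281, 330 and 441 reads in the input libraries and with 1, 18 and 4 reads in the IP libraries, or 7.65, 6.56 and 9.03 CPM against 0.02, 0.26 and 0.06 CPM. The fitted log2 change was -6.04 (SE 0.60, adjusted p = 1.4e-05), and it ranged from -7.51 (without IP replicate 2) to -5.58 (without IP replicate 1) when a library was left out. IP replicate 1, with 1 read, is below the level of 3 reads. Its gene spans chr5:116438720-116465487 (plus strand), across the end of Srrm4 (116439275 to 116591817, minus strand), and 1.86% of its exon bases overlap those of Srrm4. By these coordinates, most of the Srrm4os span lies within that of Srrm4 on the other strand. The strand setting of the counting is not stated, so reads of the pair cannot be told apart in the exon overlap. Nor can reads from Srrm4 introns be told from those of Srrm4os exons at the same place, if strand was ignored. Their part in the value of Srrm4os was not tested.

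**Figure D3:**
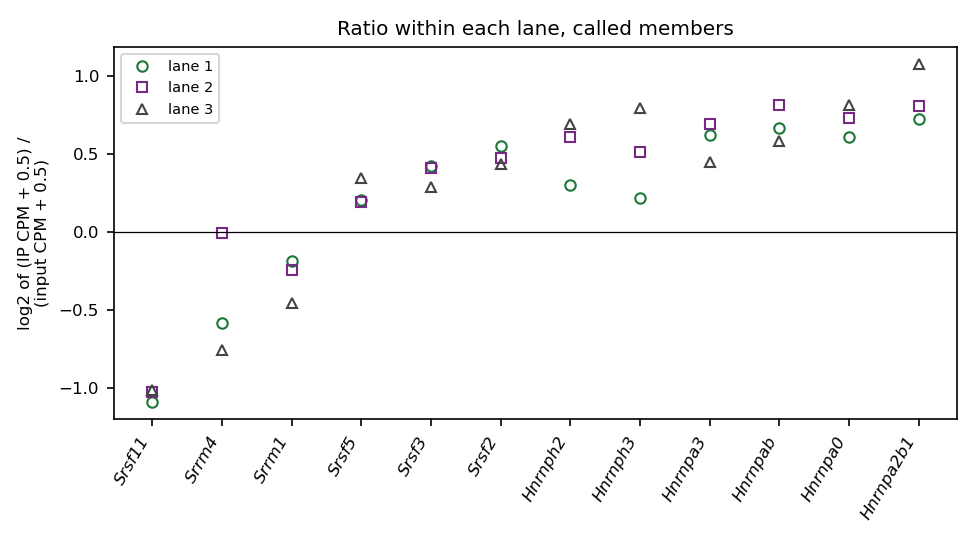
Log2 ratio of IP to input within each sequencing lane, on CPM plus 0.5, for the 12 called protein-coding members. Ratios have the same sign in all 3 lanes for each gene, but lane 2 of Srrm4 lies at -0.0036, and Hnrnph3 ranges from 0.22 to 0.79.

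All 13 called members kept their sign within the 3 lanes, each of which held 1 input and 1 IP library. The calls rest on the same libraries, so this describes them and gives no further support. The share among all called genes was not computed. Without a call, 7 members still lay lower in each IP library and 2 higher, and 16 had overlapping groups. Together with the called ones, all IP libraries were above all inputs at 11 tested members and below them at 11; over all tested genes these shares were 26.5% and 29.5%. The log2 changes of the 25 uncalled members ran from -0.26 to 0.23.

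Nuclear noncoding RNA was far lower in IP. Of 10 nuclear noncoding RNA genes, 9 were lower and 1, Peg13, higher, with a median log2 change of -3.98. Malat1, a resident of the same speckles as the SR proteins, had 19665 ± 4109 CPM in input and 330 ± 142 in IP (SD, n = 3; log2 change -5.90, adjusted p = 4.8e-08). Neat1, the scaffold RNA of paraspeckles, was lower as well (log2 change -4.24, adjusted p = 4.4e-06). Beside these stand -6.04 for Srrm4os (-7.51 to -5.58 without a library) and -1.05 for Srsf11.

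The annotation lists transcripts that keep an intron. Their number belongs to the gene model and is not a measurement in these libraries. Whether these transcripts stay in the nucleus was not tested. Srsf11 has 11 such transcripts, second among the members after Hnrnpk with 13. Of the 4 protein-coding members with 6 or more, Srsf11 and Srrm1 were lower and Hnrnpk and Hnrnpl were not called. Of 9 with none, 3 were higher and 0 lower, of 14 with 1 to 2, 3 were higher and 1 lower, and of 10 with 3 to 5, 3 were higher and 0 lower. Of the SR-related genes outside the chosen symbols, 2 of 4 with none were lower, 5 of 11 with 1 to 2, 1 of 6 with 3 to 5 and 3 of 6 with 6 or more. Their median log2 changes were -0.18, -0.19, -0.17 and -0.55 in that order. Over all tested protein-coding genes, the share called lower was 18.3% of 5934 genes with none, 21.3% of 4976 with 1 to 2, 22.2% of 2257 with 3 to 5 and 27.0% of 518 with 6 or more; median transcript length rose alongside, from 3069 to 3961 bases. Across the 38 tested members, the number of such transcripts and the log2 change had a Pearson r of 0.01 and a Spearman rho of -0.13. These are a description only, since all values come from the same 6 libraries. Unlike the counts above, the 38 include the noncoding Srrm4os, with 0 such transcripts and by far the lowest log2 change (-6.04). That point can weigh heavily on r, and the values without it were not computed. The files count reads per gene, so spliced and intron-keeping RNA of a member were not told apart.

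Other genes of the same machinery were taken from lists, with counts from the same fit. For comparison with each list, 21.3% of all tested genes were higher and 23.4% lower. Of 27 SR-related proteins outside the chosen symbols, 4 were higher (14.8%) and 11 lower (40.7%), with a median log2 change of -0.19. Rsrp1 had 154 ± 12.2 CPM in input and 39.3 ± 10.2 in the IP libraries (log2 change -1.97, adjusted p = 3.1e-06), and Nktr, a cyclophilin with an RS-rich tail, had 173 ± 9.99 and 70.4 ± 7.35 CPM (2.46-fold lower, adjusted p = 2.3e-06). Scaf1 (0.47) and Rnps1 (0.40), the latter a peripheral exon junction protein, rose, but with the length and GC offset Rnps1 was not called (0.13, adjusted p = 0.44). Bclaf1, the most abundant of the list, was not called (log2 change 0.05, adjusted p = 0.64), but was higher with the offset (0.27, adjusted p = 0.0069), which gave 7 higher and 11 lower in the list.

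Of the 9 kinases that phosphorylate SR proteins or act on the spliceosome, 1 was higher (11.1%) and 2 lower (22.2%, beside 23.4% of all tested genes). Clk1, a nuclear kinase of the RS tail whose own pre-mRNA is known to be held in the nucleus with introns, had 30.7 ± 3.38 CPM in input and 9.78 ± 1.67 in the IP libraries (log2 change -1.65, adjusted p = 1.5e-05). Its relative Clk4 had 64.8 ± 0.984 and 36.8 ± 2.05 CPM (log2 change -0.82, adjusted p = 6.9e-05). Srpk2, a cytoplasmic SR kinase, rose slightly (log2 change 0.27, adjusted p = 0.033; not called when input replicate 1, 2 or 3 or IP replicate 3 was left out, or with a filter of 1 CPM), and Clk2 and Clk3 were not called (0.18 and 0.10).

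Of 15 hnRNPs and related proteins with other symbols, 4 were higher (26.7%) and 8 lower (53.3%), with a median of -0.34. Ewsr1 (-0.88) and Taf15 (-0.87), RNA-binding proteins named after their values were seen, fell. Ptbp1, the polypyrimidine tract binder found mainly in non-neuronal cells, fell from 10.6 ± 1.29 to 3.42 ± 0.849 CPM (log2 change -1.63, adjusted p = 0.00025), while its neuronal relative Ptbp2, also named after its value was seen, was not called (-0.11). Ralyl (0.96) and Pcbp3 (0.67) rose, and Syncrip, the most abundant, fell (-0.40), but was not called and turned sign with the length and GC offset (0.05, adjusted p = 0.74). The offset gave 3 higher and 6 lower in this list, with a median of -0.18.

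**Figure D4:**
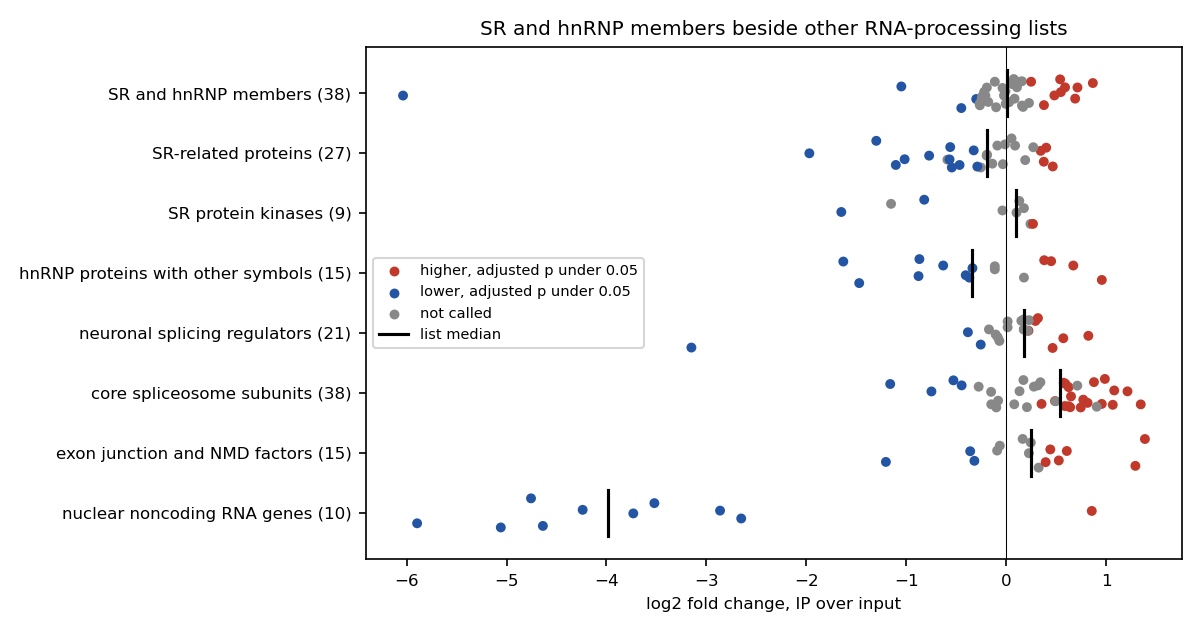
Log2 fold change, IP over input, of each tested gene (points; red higher, blue lower at adjusted p under 0.05, grey not called) in 8 lists, with the number of genes in parentheses and the median as a bar. The SR and hnRNP members centre at 0.01, between the SR-related proteins (-0.19) and the core spliceosome subunits (0.54), and nuclear noncoding RNA genes centre at -3.98.

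Core subunits of the spliceosome had a higher median than the SR and hnRNP genes, a difference that was not tested. Of 38 such genes, 19 were higher (50%, beside 21.3% of all tested genes) and 4 lower (10.5%, beside 23.4%). The median was 0.54, and 0.28 with the length and GC offset. Snrpe (1.35) and Snrpd1 (1.22), which encode parts of the Sm ring, rose most, and Snrnp70, the U1 protein that SR proteins contact, fell (log2 change -1.16, adjusted p = 2.2e-05), as did Sf3b1 (-0.75). Of 15 exon junction and nonsense-mediated decay factors, 6 were higher (40%) and 3 lower (20%), with a median of 0.25, and 0.07 with the offset. Magohb (1.39) and Magoh (1.29) were highest, and Smg1 (-1.20, and -0.59 with the offset) and Casc3 (-0.36) lowest. Lower calls dropped to 1 with total counts or without input replicate 3, and the adjusted p of Casc3 reached 0.13 over the alternatives.

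Of 21 genes listed as splicing regulators of neurons, 6 were higher (28.6%) and 3 lower (14.3%), with a median of 0.17. Over all tested genes the shares were 21.3% and 23.4%. The list also holds Qk, which is not particular to neurons. Celf6 (0.82) and Khdrbs3 (0.57) rose. Qk, the quaking gene of glia, fell from 691 ± 38.4 to 77.8 ± 4.88 CPM (log2 change -3.15, adjusted p = 1.9e-09), Mbnl1 fell as well (-0.38), and Celf2, the most abundant, fell slightly (-0.25, adjusted p = 0.029). With the length and GC offset, Mbnl1 was not called (-0.15, adjusted p = 0.10), Celf2 turned sign without a call (0.09, adjusted p = 0.32), and the list had 9 genes higher and 1 lower; total counts gave 10 higher and 2 lower. How far the SR and hnRNP genes differ from any of these lists was not tested.

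RNA of cell type markers also differed between the groups. All 8 astrocyte, all 8 oligodendrocyte and all 8 microglia markers were lower in IP, with summed levels of 3893 to 4499, 1274 to 1382 and 50.1 to 57.3 CPM in input and 817 to 1004, 155 to 180 and 4.21 to 6.59 CPM in IP. Of 7 tested endothelial markers, 6 were lower (3 without input replicate 2), and Tek had 0 reads in each IP library. Of 8 neuron markers, 4 were higher and 0 lower (3 and 0 with the length and GC offset). Neurod6 of pyramidal neurons was 2.33-fold higher. Slc17a7 (log2 change 0.34, adjusted p = 0.050), Camk2a (0.14, adjusted p = 0.41), Gad1 (0.12, adjusted p = 0.42) and Syt1 (0.10, adjusted p = 0.43) were not called. Summed levels were 21852 to 25251 CPM in input and 30078 to 31823 in IP, most of it from Snap25 (means of 17374 and 24267 CPM). The part of this in the values of the splicing factors was not tested; fewer cells of a type and less RNA per cell cannot be told apart in such bulk libraries.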

How the data were processed

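The authors deposited raw counts of reads per gene symbol, 1 file per library, with no normalization. Per the submitters' processing notes, STAR 2.0.0e, the build mm10 and HTSeq were used; no HTSeq version, strand setting or annotation is given there. Rows starting with __ and the row unknown (at most 2 reads) were left out; reads outside genes made up 17.2% of listed reads in input and 8.78% in IP. The test was edgeR 4.0.16 (R 4.3.3), quasi-likelihood, TMM, filterByExpr, group term alone, two-sided, with Benjamini-Hochberg adjustment over 16506 genes at 0.05; standard errors come from the test statistic. On simulated counts with 16547 genes it recovered 66 of 100 genes changed 2-fold (log2 of 1) and 89 of 100 changed by a log2 of 2, with 6 false calls. Far fewer genes were changed there than the 44.8% called in the data. These recovery figures therefore do not give the power in the data.

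Alternatives were DESeq2 1.42.0, limma-voom (limma 3.58.1), RLE, total counts, 2 other filters, a replicate block, a robust loess offset for transcript length and GC content (GENCODE M21, 87.7% of tested genes), block and offset together, and leaving out each library. The replicate number is the sequencing lane in the labels, so it marks a shared lane. Deviations of same-numbered libraries correlated at 0.13, 0.09 and 0.05, and of differently numbered ones at -0.08 to 0.01. Chi-square per degree of freedom between libraries of a group was 22.0 to 65.2, so none was a copy. Group and library index coincide and cannot be told apart. The 3-read floor is 0.0444 to 0.0796 CPM and covers counting error only. A 50-base window was counted as shared when a GENCODE M21 transcript of a gene at another locus holds it on either strand; read length was not used.

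Any member may be named. From the other lists the text names the 2 called genes that moved most in each direction and the most abundant one, and any kinase, noncoding RNA or marker. Some genes that this rule names are not reported here. Members and lists were chosen with earlier results of these data known.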

Additional observations from a re-analysis of the deposited data

Results flagged for a closer look

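Reads aligned to several places, which enter no gene count, made up 34.4% ± 1.43 of the listed reads in IP and 22.4% ± 1.21 in input (SD, n = 3), with each IP library above each input library. This row lies outside the gene counts compared here, and which genes its reads came from is not given in the files.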

How the results depend on the processing

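Of 570 refits of single members, 483 kept direction and side of the threshold. With direction kept, 27 lost a call and 27 gained one. The other 33 changed sign, among them the refits of Srsf5 with the offset, which also lost its call. Hnrnpa0, Hnrnpa2b1, Hnrnpa3, Hnrnpab, Hnrnph2, Srsf11 and Srrm4os kept direction and call in all 15 alternatives. Lower calls numbered 8 with DESeq2, 9 when at least 1 CPM was asked for in 3 libraries, and 2 to 4 when a library was left out (2 without input replicate 3 or IP replicate 3). The causes were not tested. Higher calls numbered 6 to 8 without a library (6 without input replicate 2), and 3 among the 26 members with little shared sequence or overlap, where fewer members are counted.

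The values of log2 change that turned sign were these. With total counts, Hnrnpc reached 0.0888, Hnrnpdl 0.0729, Hnrnpm 0.0581 and Srsf9 0.0913. With no filter, Hnrnpc reached 0.0155 and Srsf9 0.0131, and with at least 1 CPM Srsf1 reached -0.0165. With the length and GC offset, Hnrnpd reached 0.0816, Hnrnpu 0.0941, Srrm3 -0.0713, Srsf5 -0.0334 and Tra2a -0.0931. With the replicate block as well, the values were 0.0796, 0.0922, -0.0867, -0.0344 and -0.0897 in that order, and 5.1e-05 for Hnrnpm. Leaving out a library gave Hnrnpc -0.0376 to 0.0376, Hnrnpdl -0.0625 to 0.0306, Hnrnpm -0.0671 to 0.0312, Srrm3 -0.105 to 0.263, Srsf1 -0.0558 to 0.106 and Srsf9 -0.0986 to 0.164.

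The median of the members was 0.110 with total counts, -0.00966 with DESeq2, -0.0097 with RLE size factors, -0.0341 with at least 1 CPM, -0.0169 with the offset, -0.0172 with block and offset, and -0.0137 to 0.0452 when a library was left out. That of all tested genes was 0.0784 with total counts and 0.00977 with at least 1 CPM. That of the SR kinases was -0.0869 with the offset and -0.105 with block and offset. The replicate block alone gave 8 higher and 4 lower members and ended 1 call, Hnrnph3; with the offset it gave 11 and 6. Few reads limit Hnrnpf, Srsf4, Hnrnph3 and Srrm4os.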
